A study of Bos taurus with 20 samples.

Results

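SRPK1, SRPK2, CLK1, CLK2, CLK3 and CLK4 encode the 6 protein kinases described here, in the blood of 20 pregnant recipient cows. They were matched by cattle symbol to the Entrez identifiers of the count files, which hold 37063 genes, and all 6 were among the 16206 genes that passed the filter on low counts. SRPK2 was chosen by the slope of its level on calf birth weight (BW) in these same libraries, so that slope is given as a description and was not tested. The other 5 kinases were taken for their kinship with SRPK2 and not for their own slopes.

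SR proteins are RNA-binding proteins that steer the choice of splice sites, and they carry a tail rich in arginine and serine, the RS domain. The SRPK kinases phosphorylate RS domains mainly in the cytoplasm, which lets the SR proteins be carried into the nucleus. The CLK kinases phosphorylate them further in the nucleus, which releases SR proteins from nuclear speckles to the sites of splicing. AKT kinases, heat shock chaperones and the importer TNPO3 act on or beside the SRPKs, and the phosphatases PP1 and PP2A remove the phosphates.

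The 20 cows formed 1 group with 1 library each, from whole maternal blood drawn 63 days into gestation. The study's methods describe the recipients as synchronized lactating dairy cows, while its overview of the data sets lists them as Angus. Each carried a single embryo made in vitro from an oocyte of an Angus donor with sex-sorted semen, and each calf was female. The cows therefore shared the embryo's maternal breed type and the calf sex, there was no untreated or non-pregnant group, and calf BW was the variable of interest. BW was 45.0 ± 10.1 kg (SD, n = 20) and ranged from 30 to 72.5 kg. The study's own model left out the cow of the heaviest calf, and so did the fits on BW here. In those fits BW was 43.55 ± 7.97 kg (SD, n = 19) with 56 kg as the highest. Each cow is named below by the weight of her calf, since all 20 weights differed.

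Libraries held 24632077 to 39892111 counts, with a median of 33412740, and mitochondrial genes took 1.36 to 1.89% of the counts. No library was a copy of another: the lowest ratio of chi-square to degrees of freedom over the 190 pairs was 12.65. Markers of all the main blood cell types were present, with summed levels of 3400 to 6010 CPM (counts scaled to library size) for the 9 neutrophil genes tested, 1020 to 1650 CPM for 9 T cell genes, 742 to 1310 CPM for 7 B cell genes, 614 to 1330 CPM for 6 monocyte genes, 626 to 1820 CPM for 8 platelet genes and 138 to 251 CPM for 6 NK cell genes. Erythroid genes varied most, from 54 to 1100 CPM over 8 genes, and the 5 neutrophil granule genes tested summed to 18.1 to 94.8 CPM. In whole blood, fewer cells of a type and less RNA per cell cannot be told apart, and this holds for every level below.

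All 6 kinases were well measured in every cow. CLK1 had 14373 to 26514 counts per library, SRPK2 had 5426 to 14166 and CLK4 had 5330 to 10524. SRPK1 had 2728 to 5437 counts, CLK2 had 3028 to 4514 and CLK3 had 2698 to 4507. Counting error alone gave a coefficient of variation (CV) of 0.707% for CLK1 to 1.67% for CLK3, below the CV between cows for each kinase. Levels below are CPM after TMM scaling and are not divided by gene length, so they are compared between cows and not between genes.

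SRPK2 (Entrez 505945) had the widest range of the 6 kinases between cows. Its level ran from 195 CPM in the cow of the 36 kg calf to 482 CPM in that of the 56 kg calf, with a median of 278 CPM and a mean of 302 ± 76.2 CPM (SD, n = 20). The highest level was 2.47 times the lowest. The order from the top was 482 CPM in the cow of the 56 kg calf, 430 in that of the 46 kg calf, 403 at 55 kg, 392 at 54 kg and 387 at 53 kg. These 5 cows stood above the rest, and 4 of them had the 4 heaviest calves among the 19 cows of the fit. SRPK2 was chosen by its slope on BW, so this match restates the choice. A step down came 310 CPM at 50 kg and 309 CPM at 45 kg, followed by 296 CPM at 35 kg, 283 CPM at 49.5 kg, 282 CPM at 38 kg and 274 CPM at 43 kg. The cows of the 41.5 and 37 kg calves had 262 CPM each, that of the 39 kg calf had 253 CPM, and those of the 72.5 and 47.4 kg calves had 251 CPM each. The lowest levels were 243 CPM at 40 kg, 236 CPM at 32 kg, 235 CPM at 30 kg and 195 CPM at 36 kg. Each cow gave 1 library, so neighbours in this order cannot be ranked against a spread within cows.

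SRPK1 (Entrez 512631), the closest relative of SRPK2, was nearly level over the cows. It ran from 110 CPM in the cow of the 30 kg calf through a median of 126 CPM to 141 CPM in that of the 47.4 kg calf, a 1.28-fold range with a mean of 126 ± 8.27 CPM (SD, n = 20). The ratio of SRPK2 to SRPK1 counts moved from 1.66 in the cow of the 36 kg calf to 3.66 in that of the 56 kg calf, around a median of 2.3. That ratio is not corrected for gene length, so its change between cows can be read but not its size.

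Among the CLKs, CLK2 (Entrez 512737) was the most even and CLK4 (Entrez 529633) the least. CLK2 ran from 107 CPM in the cow of the 47.4 kg calf through a median of 114 CPM to 124 CPM in that of the 30 kg calf, a 1.16-fold range. CLK3 (Entrez 505499) ran from 102 CPM at 49.5 kg through 108 CPM to 126 CPM at 50 kg, a 1.24-fold range between cows whose calves were almost equally heavy. CLK1 (Entrez 613808) ran from 560 CPM at 43 kg through 620 CPM to 720 CPM at 41.5 kg, a 1.29-fold range, again between cows of similar calves. CLK4 ran from 188 CPM at 45 kg through 225 CPM to 273 CPM at 41.5 kg, a 1.45-fold range.

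The CV between the 20 cows was 25.2% for SRPK2, 9.96% for CLK4, 7.23% for CLK1, 6.58% for SRPK1, 5.79% for CLK3 and 3.53% for CLK2. The biological CV that edgeR estimated around the line on BW in 19 cows was 14.4% for SRPK2 and 11% for CLK4. It was 8.33% for CLK1, 7.47% for SRPK1, 7.29% for CLK3 and 6.06% for CLK2. edgeR draws each gene's estimate toward the trend of all genes, so it is not a part of the CV between cows. For every kinase but SRPK2 it was above that CV. Of all 16206 genes tested, 53.4% had a higher biological CV than SRPK2 and 68.3% a higher one than CLK4, against 87.1% for CLK1, 93.4% for SRPK1, 94.8% for CLK3 and 99.6% for CLK2. Genes at low levels had higher values, as the plot of variation against level shows.

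**Figure D1:**
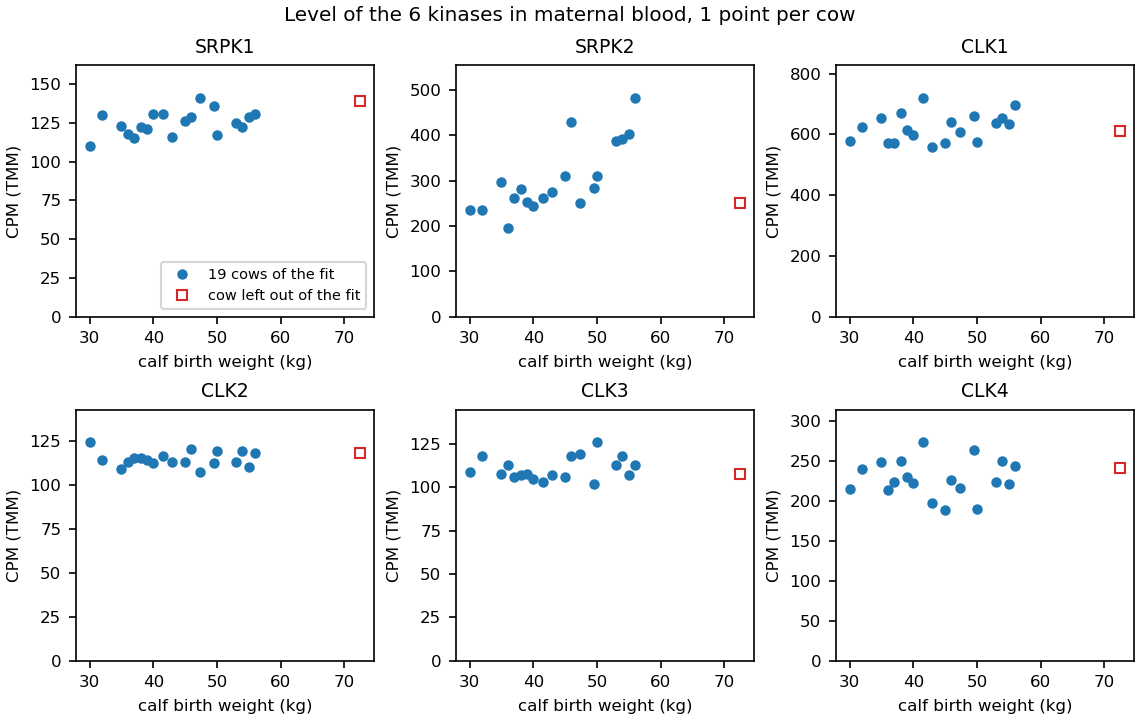
Level of each kinase (CPM after TMM scaling, axis from 0) against calf BW in kg, with 1 point per cow; filled points are the 19 cows of the fit and the open square is the cow of the 72.5 kg calf. SRPK2 spans 195 to 482 CPM with the highest levels at 46 to 56 kg, and the open square lies at 251 CPM; the other 5 kinases form flat bands.

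**Figure D2:**
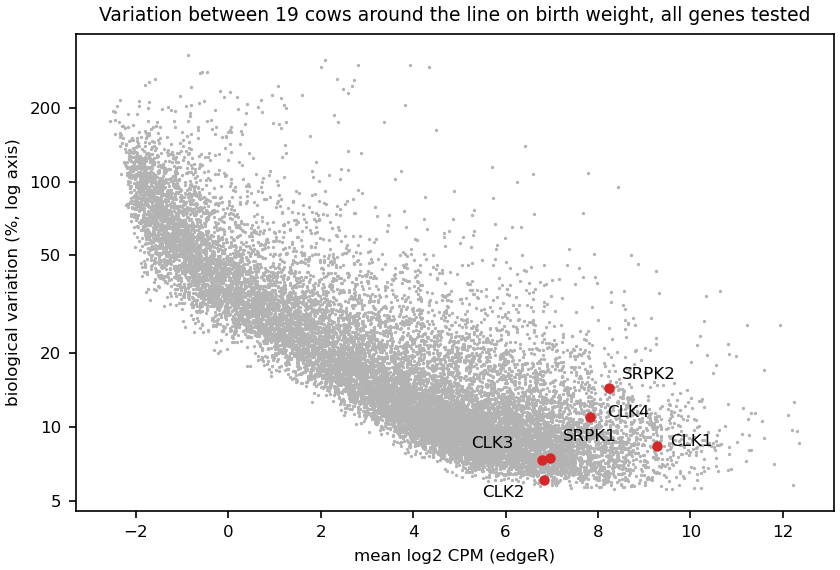
Biological variation between 19 cows around the line on BW (%, log axis) against mean log2 CPM for the 16206 genes tested, with the 6 kinases in red. Values are edgeR estimates, each drawn toward the trend of all genes. SRPK2 lies highest of the 6 at 14.4% and CLK2 lowest at 6.06%.

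The question of the fit on BW was whether a gene's level in maternal blood at day 63 followed the weight of the calf. Across all 16206 genes, edgeR called 0% at a false discovery rate (FDR) below 0.05, although 2247 genes (13.9%) had an unadjusted p below 0.05, 1099 with a positive slope (6.78%) and 1148 with a negative one (7.08%). limma-voom called 0 genes too, and DESeq2 called 189 of 15478 (1.22%). The smallest FDR of the edgeR fit was 0.0753. The median slope over all genes was -0.0007 log2 units per kg, and 7544 of the 16206 slopes were positive. With other scalings that median was -0.00031 to -0.001, which comes close to or exceeds in size the slopes of CLK2 and CLK4 and some of the list medians below.

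No gene passed the edgeR test on BW at that FDR, so none of the 5 relatives of SRPK2 did. Of these 5, 0 had an unadjusted p below 0.05 with edgeR, DESeq2 or limma-voom, against the 13.9% of all genes with edgeR. Their median slope was 0.0019 log2 units per kg, with 3 positive and 2 negative. The slope of SRPK1 was 0.0042 ± 0.0027 log2 units per kg (SE, edgeR FDR = 0.525), which over the 26 kg between the lightest and the heaviest calf of the fit is a 1.08-fold difference with a 95% interval of 0.974 to 1.19. CLK1 had a slope of 0.0035 ± 0.0031 (edgeR FDR = 0.661), or 1.07-fold over 26 kg with an interval of 0.949 to 1.2. CLK3 had a slope of 0.0019 ± 0.0026 (edgeR FDR = 0.799), or 1.03-fold with an interval of 0.939 to 1.14. The slopes of CLK2 and CLK4 were negative and small, -0.0011 ± 0.002 (edgeR FDR = 0.845) and -0.00064 ± 0.0043 (edgeR FDR = 0.968). Their folds over 26 kg were 0.98 with an interval of 0.91 to 1.05 for CLK2 and 0.989 with an interval of 0.841 to 1.16 for CLK4. The intervals thus leave room for at most a 1.2-fold higher level of a relative in the cow of the heaviest calf, and the widest of them, that of CLK4, reaches down to 0.841-fold. The sign of CLK2 turned when the cow of the 30 kg calf was left out (0.00048), and that of CLK4 did so without any of 5 cows, so neither has a settled direction.

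SRPK2 itself had a slope of 0.034 ± 0.0058 log2 units per kg (SE, n = 19 cows). Over the 26 kg this is a 1.84-fold difference. These values chose the gene and are given with no test and no interval.

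The cow of the 72.5 kg calf took no part in that fit, and her SRPK2 level was far below the line. She had 251 CPM where the line through the other 19 cows runs to 587 CPM, which is 0.428 times the line, a log2 difference of -1.23 beside a residual SD of 0.22 log2 units among the 19 cows. Of the 19 cows, 14 had more SRPK2 than she did. A line drawn beyond 56 kg is an extension past the data, and 1 cow gives no error of its own. When she was included, the slope of SRPK2 was 0.0197 log2 units per kg with an SE of 0.00671. Her other kinases lay near their lines: SRPK1 was 139 CPM against 137, CLK2 was 118 against 113, CLK3 was 108 against 116, CLK4 was 241 against 226 and CLK1 was 610 against 676 CPM. Her SRPK1 was the second highest of all cows, and with her in the fit SRPK1 was the 1 relative with an unadjusted p below 0.05 (slope 0.00496 with an SE of 0.00201, edgeR p = 0.022).

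**Figure D3:**
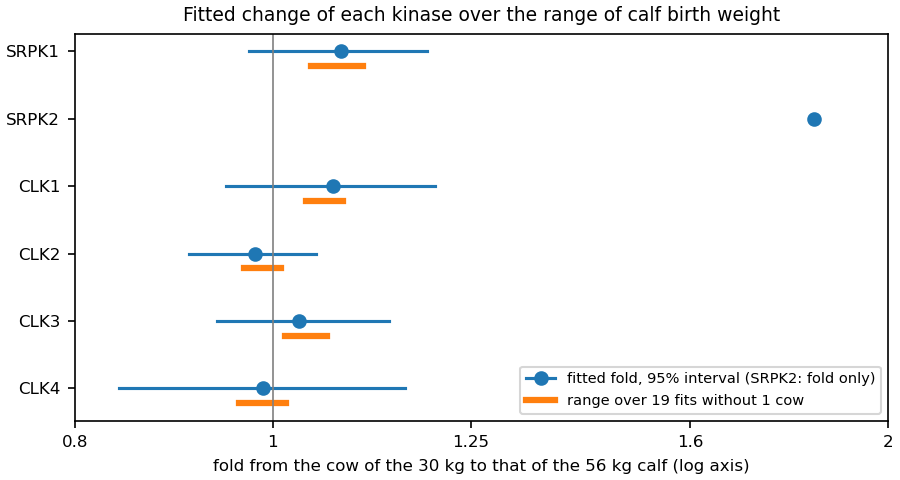
Fitted fold of each kinase from the cow of the 30 kg calf to that of the 56 kg calf (log axis), with the 95% interval from edgeR in blue and the range over 19 fits without 1 cow in orange for the 5 relatives. Their intervals span a fold of 1, and SRPK2, which was chosen for this slope, is shown by its fold of 1.84 alone.

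Whether the kinases moved together from cow to cow was tested on log2 CPM in all 20 cows, which uses no BW. Of the 15 pairs, 1 had a permutation p adjusted by Benjamini-Hochberg below 0.05. This was CLK1 with CLK4, at a Pearson r of 0.85 (permutation p = 1e-05, the smallest the 100000 resamples can give, adjusted p = 0.00015) and a Spearman rho of 0.89 (permutation p = 1e-05, adjusted p = 0.00015). Without the 2 cows farthest from the median of CLK1 the r was 0.83, and after a line on BW it was 0.85. The cow of the 41.5 kg calf had the highest level of both kinases, 720 CPM of CLK1 and 273 CPM of CLK4. The cows of the 43, 45 and 50 kg calves had the lowest CLK4 at 197, 188 and 190 CPM, and their CLK1 was among the lowest as well, at 560, 571 and 575 CPM. The ratio of CLK1 to CLK4 counts stayed between 2.51 and 3.03, a CV of 5.57%. Of the 16205 other genes tested, 1082 (6.68%) had an r of at least 0.5 with CLK1, and CLK4 was the seventh of them by r. CLK1 and CLK4 are close paralogs, and whether reads that match both were counted is not given in the sources used here; the part of shared reads in this r was not tested.

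The levels of CLK1, CLK4 and SRPK1 all went with the main axis of variation in these libraries. The first principal component, which held 15.62% of the variance of all genes tested, had an r of -0.71 with CLK1, -0.68 with CLK4 and -0.63 with SRPK1, given here as a description. After a line on that component, CLK1 and CLK4 still had an r of 0.71, while the r of SRPK1 with CLK1 went from 0.47 (permutation p = 0.0343, adjusted p = 0.224) to 0.04 and that of SRPK1 with CLK4 from 0.4 to -0.06. SRPK1 and CLK2 had an r of -0.41 (permutation p = 0.0716, adjusted p = 0.252), which was 0.03 without the 2 cows farthest from the median of SRPK1. SRPK2 had an r of -0.23 with the component. With log2 library size, the 6 kinases had an r between -0.26 and 0.23. With the mitochondrial share of counts, CLK2 had an r of -0.55, SRPK1 had 0.4 and SRPK2 had -0.22, and the part of that share in the levels was not tested.

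No relative of SRPK2 passed the test of moving with it. The r of SRPK2 with SRPK1 was 0.16 (permutation p = 0.495, adjusted p = 0.73), and it was 0.16 with CLK2, 0.22 with CLK3 and 0.08 with CLK4. Its r with CLK1 was 0.45 (permutation p = 0.0449, adjusted p = 0.224) with a rho of 0.44, and fell short of the threshold after adjustment. Among all 16205 other genes, 8.57% had an r with SRPK2 at least as high as CLK1 did, and the shares were 24.2% for CLK3, 30.2% for CLK2, 30.3% for SRPK1 and 38.7% for CLK4. None of the relatives was among the 1086 genes (6.7%) with an r of at least 0.5 with SRPK2.

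**Figure D4:**
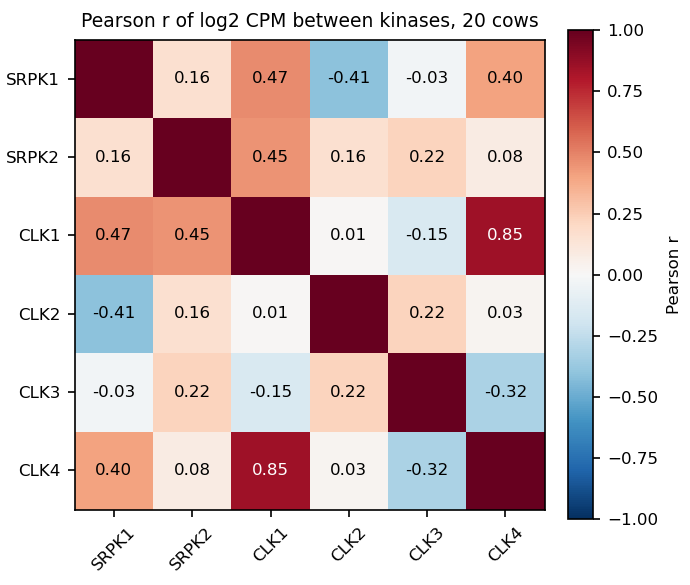
Pearson r of log2 CPM between the 6 kinases over 20 cows, with the value printed in each cell and the color running from -1 in blue to 1 in red. CLK1 with CLK4 at 0.85 is the only pair past the test, and the row of SRPK2 runs from 0.08 to 0.45.

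The genes whose levels were most like SRPK2 over the 20 cows came from outside its family. MSL1 (Entrez 787839), a scaffold of a histone acetyltransferase complex, had an r of 0.88 and a rho of 0.8, with 215 to 307 CPM around a median of 245. IGF1R (Entrez 281848), the receptor of insulin-like growth factor 1, had an r of 0.87 and a rho of 0.82 at 53.7 to 81.0 CPM. VPS29 (Entrez 513840), a subunit of the retromer that sorts cargo from endosomes, had an r of 0.87 and a rho of 0.76. CRISPLD2 (Entrez 505329), a secreted protein that binds lipopolysaccharide, had an r of 0.85 at 88 to 278 CPM, and NFIL3 (Entrez 506097), a transcription factor with roles in leukocyte development and circadian control, had an r of 0.85 at 32.2 to 81.5 CPM. After a line on BW the r of these 5 genes with SRPK2 was still 0.81 to 0.85. They were picked as the highest of 16205 values, so their r has no test.

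At the other end, the lowest r with SRPK2 belonged to genes at low levels. SORBS3 (Entrez 507914), which encodes the adhesion adaptor vinexin, had an r of -0.81 and a rho of -0.83 at 4.07 to 10.9 CPM. SCUBE2 (Entrez 529947), a secreted protein of hedgehog release, had an r of -0.8 at 0.117 to 1.62 CPM, and LOC615297 had an r of -0.79 at 0 to 0.578 CPM. NAXE (Entrez 404132), an epimerase that repairs damaged NADH and NADPH, had an r of -0.77 at 11.2 to 17.1 CPM, and CTNND2 (Entrez 523661), a catenin of cell junctions, had an r of -0.76 at 1.13 to 15.7 CPM. Their r after a line on BW was -0.67 to -0.8. An r of -0.5 or lower was found for 577 genes (3.56%).

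SRPK2 also followed a receptor of eosinophils. Of the 9 lists of cell type markers set against each kinase, 54 comparisons in all, 1 passed the test, and it was SRPK2 with the eosinophil list. That list came down to a single gene: of its 6 markers, IL5RA (Entrez 615848), the receptor chain for interleukin-5, was the only one tested, CCR3 and ALOX15 had 0 counts in all 20 cows, and EPX, PRG3 and SIGLEC8 have no row by that symbol. IL5RA had 20.2 to 200 CPM with a median of 58.8. Its r with SRPK2 was 0.71 (permutation p = 0.00042, adjusted p = 0.0227), its rho was 0.58 (permutation p = 0.00773, adjusted p = 0.417), and r was 0.6 without the 2 cows farthest from the median. After a line on BW the r was 0.62 (permutation p = 0.00388, adjusted p = 0.105). The cows of the 56 and 46 kg calves, first and second in SRPK2 at 482 and 430 CPM, were first and second in IL5RA at 200 and 148 CPM. The next 3 in SRPK2, those of the 55, 54 and 53 kg calves, had 71.4, 77.7 and 71.1 CPM of IL5RA, and the cow of the 36 kg calf, lowest in SRPK2, had 24.1. The pattern was not complete, since the cow of the 72.5 kg calf had 87.3 CPM of IL5RA, the third highest, with 251 CPM of SRPK2. The call was lost without the cow of the 56 kg calf (r 0.61, adjusted p = 0.202), the 46 kg calf (0.66, adjusted p = 0.117) or the 36 kg calf (0.67, adjusted p = 0.0837).

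Further eosinophil genes, picked with their values in view after the list had come down to IL5RA, gave r values with SRPK2 of the same sign. They are a description and lend the IL5RA result no separate support. HRH4, the histamine H4 receptor, had an r of 0.7 with SRPK2, the sphingomyelinase SMPD3 had 0.67, the leukotriene receptor CYSLTR2 had 0.65, the prostaglandin D2 receptor PTGDR2 had 0.61 and the granulocyte factor CEBPE had 0.58. These 5 genes had an r of 0.87 to 0.95 with IL5RA. OLIG2 had 0 counts in 3 cows and an r of 0.33 with SRPK2. Over all genes, 6.7% had an r of at least 0.5 with SRPK2. HRH4, CYSLTR2, PTGDR2 and SMPD3 also had positive slopes on BW, with an unadjusted edgeR p of 0.00708 to 0.0227. SRPK2 was chosen by its own slope, so part of these r comes with the choice, and r after BW is not given for them. IL5RA itself had a slope on BW of 0.053 ± 0.019 log2 units per kg (SE, edgeR FDR = 0.216). With IL5RA as a covariate the slope of SRPK2 on BW was 0.0231 with an SE of 0.00541, and with the mean of IL5RA and the 6 further genes it was 0.025 with an SE of 0.00549, against 0.034 with neither. The 5 genes most like SRPK2 went with IL5RA as well, at an r of 0.76 to 0.92, and CRISPLD2 had a higher r with IL5RA (0.92) than with SRPK2 (0.85). After a line on IL5RA their r with SRPK2 was 0.68 to 0.74. The part of eosinophil number in the level of SRPK2 was not tested.

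The other cell type lists went less with SRPK2. Its r was -0.49 with monocyte markers (permutation p = 0.0276, adjusted p = 0.298), where rho was -0.19 and r was 0.15 without the 2 cows farthest from the median. It was -0.32 with erythroid markers, -0.21 with B cell markers, -0.19 with platelet markers, -0.08 with neutrophil granule markers, 0.02 with neutrophil markers, 0.02 with T cell markers and 0.18 with NK cell markers. Among the relatives, SRPK1 had an r of 0.57 with T cell markers (permutation p = 0.0089, adjusted p = 0.202), which was 0.73 after a line on BW (permutation p = 0.0001, adjusted p = 0.0054) and 0.34 without the 2 cows farthest from the median. CLK2 had an r of -0.53 with the same T cell markers (permutation p = 0.0166, adjusted p = 0.224). CLK2 and CLK3 each had an r of 0.44 with IL5RA, with adjusted p = 0.333 and 0.336 by permutation.

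**Figure D5:**
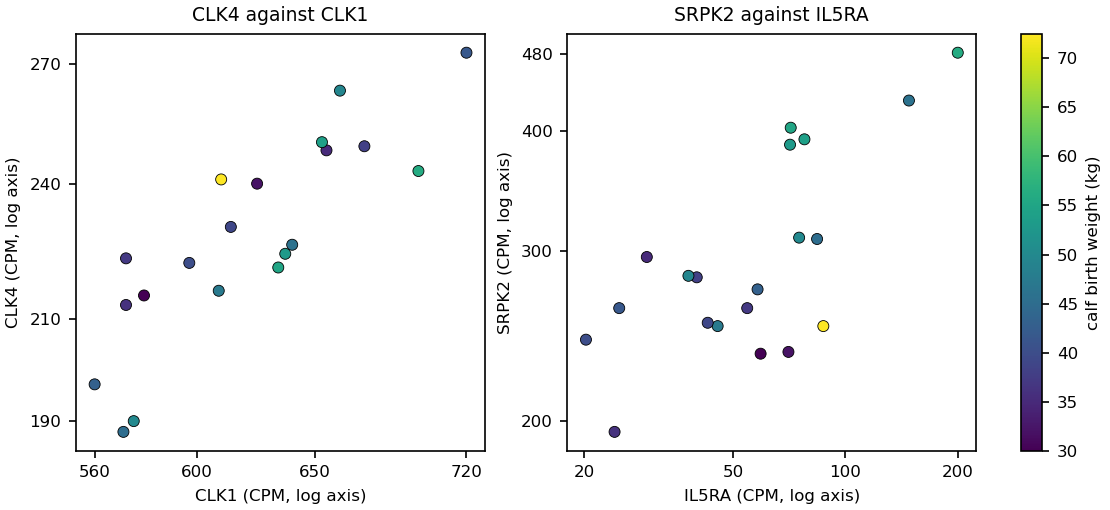
Left, CLK4 against CLK1, and right, SRPK2 against IL5RA (CPM, log axes), with 1 point per cow and the color giving calf BW in kg. CLK1 and CLK4 run along 1 line over cows of all BW, and on the right the cows of the 56 and 46 kg calves stand at the top with 482 and 430 CPM of SRPK2 while that of the 72.5 kg calf (yellow) lies at 251 CPM.

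edgeR called 0% of all 16206 genes on BW at an FDR below 0.05, so the substrates of these kinases held no call either. The lists here and below were chosen with earlier results of these data known, so their counts are a description. Of 14 SR protein genes listed, 13 were tested, 4 with a positive and 9 with a negative slope beside 7544 positive and 8662 negative over all genes, and their median slope was -0.003 log2 units per kg against -0.0007 over all genes. At an unadjusted p below 0.05 there were 3 negative slopes and 0 positive ones, against 7.08% and 6.78% of all genes. DESeq2 called 0 at an FDR below 0.05, against 1.22% of its 15478 genes. SRSF9 (Entrez 509905) ranged from 43.3 to 63.4 CPM with a slope of -0.01 ± 0.0029 (SE, edgeR FDR = 0.158), or 0.83-fold over 26 kg. SRSF5 (Entrez 510474) had -0.0091 ± 0.0034 (edgeR FDR = 0.248), or 0.849-fold, and SRSF1 (Entrez 615796), the founding SR protein, had -0.0085 ± 0.0037 (edgeR FDR = 0.302), or 0.858-fold. With the cow of the 72.5 kg calf included these slopes were -0.0058, -0.0042 and -0.0035. Of the 10 other genes for proteins with RS domains, all tested, 3 had a positive and 7 a negative slope. Their median was -0.0005, against -0.0007 over all genes. The single one with an unadjusted p below 0.05 was SON (Entrez 516462), a large speckle protein, at 0.0058 ± 0.0022 (edgeR FDR = 0.243). That was 1 positive slope and 0 negative ones, against 6.78% and 7.08% of all genes.

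Other kinases of the CMGC group, to which the SRPKs and CLKs belong, were counted in the same way. The list does not hold the whole group and was chosen with earlier results of these data known, so its counts are a description. Of 13 listed, 12 were tested, with 8 positive and 4 negative slopes and a median of 0.0033 log2 units per kg. All genes together had 7544 positive and 8662 negative slopes and a median of -0.0007. An unadjusted p below 0.05 was found for 4, all positive, against 6.78% of all genes. The edgeR FDR was passed by 0 of them, as by 0% of all genes. HIPK1 (Entrez 512233), a nuclear kinase that acts on transcription factors, ran from 266 to 352 CPM around a median of 295. Its slope was 0.0097 ± 0.0022 (SE, edgeR FDR = 0.0976, DESeq2 FDR = 0.00831), a 1.19-fold difference over 26 kg, and its r with SRPK2 was 0.8. Its relative HIPK2 (Entrez 510158) ran from 59.4 to 132 CPM with a slope of 0.019 ± 0.0065 (edgeR FDR = 0.208) and an r of 0.69 with SRPK2. HIPK1 and HIPK2 were named for their slopes on BW and SRPK2 was chosen by its own. Part of these r therefore comes with the choice, and r after BW is not given. DYRK1A (Entrez 532989), which also phosphorylates splicing factors, had a slope of 0.0055 ± 0.0021 (edgeR FDR = 0.248) and DYRK1B (Entrez 507571) one of 0.0098 ± 0.0042 (edgeR FDR = 0.302). SRPK3, the muscle member of the SRPK family, had 0 to 37 counts per library and a slope of -0.0096 ± 0.028 (edgeR FDR = 0.92), and is named here for its kinship. All of these slopes kept their sign in 20 cows.

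Of the 13 partners, import factors and phosphatases, all tested, 6 had a positive and 7 a negative slope, with a median of -0.0004 log2 units per kg. All genes together had 7544 positive and 8662 negative slopes and a median of -0.0007. An unadjusted p below 0.05 was found for 2, both positive, against 6.78% of all genes. The edgeR FDR was passed by 0 of them, as by 0% of all genes. AKT1 (Entrez 280991), a kinase that acts upstream of SRPKs, ran from 347 to 466 CPM around a median of 399, with a slope of 0.0075 ± 0.0033 (SE, edgeR FDR = 0.318) and an r of 0.63 with SRPK2. AKT1 was also named for its slope on BW, so part of this r comes with the choice. The chaperones, TNPO3 and the phosphatase subunits had slopes between -0.0038 and 0.0049, none with an unadjusted p below 0.05.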

How the data were processed

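Whole blood RNA of 20 cows was sequenced as paired reads. Per the labels and the study's methods, the authors used FastQC 0.11.9, Trimmomatic, STAR 2.7.0b on the bosTau 9 / ARS-UCD1.3 genome and featureCounts of Subread 2.0.3, and deposited raw counts per Entrez gene, 1 file per cow. The labels and the methods name different stranded kits, and the strand and multimapping settings are not given in the sources used here. Symbols came from the RefSeq cattle gene table (ARS-UCD2.0), which matched all 37063 identifiers, and no coordinates or lengths were taken from it.

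The 16206 genes that reached 10 counts in 5 or more cows were fitted on BW in kg with edgeR 4.0.16 (TMM, quasi-likelihood) in R 4.3.3, with Benjamini-Hochberg adjustment over all genes tested. The study's model used DESeq2, here 1.42.0 and an alternative, as was limma-voom 3.58.1. The fits and the correlation test were tested on simulated data. Correlations used log2 CPM with a prior count of 2, Python 3.11.15, scipy 1.17.1 and two-sided permutation tests with 100000 resamples, adjusted over 15 kinase pairs or 54 pairs of a kinase and a list. List scores were mean z-scores of log2 CPM. The cow is the replicate, with 1 library each, so p-values rest on the variation between these cows.

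The kinases, the pathway lists (SR proteins, other RS-domain proteins, other CMGC kinases, and partners, import and phosphatases) and the marker lists (neutrophil, neutrophil granule, eosinophil, monocyte, T, NK and B cell, platelet, erythroid) were chosen with earlier results of these data known. Text names the 6 kinases, the 5 genes with the highest and the 5 with the lowest r with SRPK2, and in each pathway list at most the 4 smallest p-values below 0.05. Outside this rule, SRPK3 and the eosinophil genes were picked with their values in view. The first principal component, IL5RA and the 7 eosinophil genes as covariates were added after seeing the data. 1 gene of the partner list is counted but not reported here.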

Additional observations from a re-analysis of the deposited data

How the results depend on the processing

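The number of genes with an FDR below 0.05 on BW, 0 in the edgeR fit, was 189 with DESeq2, 147 with every gene of any count, 4 in all 20 cows, 1 with log2 library size and 1 with the first principal component as covariate, and 0 to 34 without 1 cow. The count of 34 came without the cow of the 32 kg calf, 2 came without those of the 35, 30 or 46 kg calves, and 1 without those of the 41.5 or 36 kg calves. The cause was not tested. Of the 5 relatives, 0 had an unadjusted p below 0.05 in 13 of the 14 other settings and without any 1 of the 19 cows; in all 20 cows there was 1, SRPK1 (0.00496). The slope of SRPK2 was 0.0197 in all 20 cows, 0.0231 with IL5RA and 0.025 with 7 eosinophil genes as covariate, and 0.0301 to 0.0362 without 1 cow. SRPK2 was chosen by this slope in these libraries, so these values describe it and lend it no support. Small slopes turned sign: CLK2 in all 20 cows (0.000215), CLK3 with IL5RA (-0.000125) or 7 eosinophil genes (-0.00011), and CLK4 in all 20 cows (0.00112), with IL5RA (0.00255) or 7 eosinophil genes (0.00353). Without 1 cow CLK2 ran from -0.00177 to 0.000482 and CLK4 from -0.00214 to 0.000822.

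CLK1 with CLK4 was the 1 pair past the test in every setting, with r from 0.71 to 0.89; after the first principal component there were 2, the second being SRPK1 with CLK2 (-0.63, adjusted permutation p = 0.0259). In pairs with SRPK2, the sign of r turned for SRPK1 after BW (-0.14) and for CLK4 after the first principal component (-0.11). It also turned for CLK2 with library size only (-0.08) or after IL5RA (-0.24), and for CLK3 after IL5RA (-0.13). SRPK2 with CLK1 passed the test in no setting, with r from 0.33 to 0.59 without 1 cow and 0.35 to 0.59 otherwise. It came nearest after IL5RA (0.59, adjusted permutation p = 0.0511) and without the cow of the 41.5 kg calf (0.59, adjusted permutation p = 0.0672). Some pairs without SRPK2 turned after the first principal component, such as SRPK1 with CLK4 (-0.06) and SRPK1 with CLK3 (from -0.03 to 0.31). The number of marker lists past the test with SRPK2 was 0 after BW, 0 by Spearman rho and 0 to 1 without 1 cow; the r with IL5RA was 0.61 to 0.76 without 1 cow. No paired analysis was possible because all cows form 1 group. Depth limits SRPK3 alone among the kinases named, at no more than 37 counts.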
